A study of Mus musculus with 454 samples.

Results

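The cells described here are the 65 picked nodose neurons with the highest joint level of Dbh, Mfap5, Lockd, Areg and Ntsr1, and they make up 14.5% of the picked cells that had at least 2000 genes above 0. Each cell was scored by the mean of log2(CPM + 1) over the 5 genes, where CPM is the reads of a gene scaled to a common library size, and the 65 highest scores were taken as members against all other such cells. The best member scored 4.88 and the median member 3.77, against a median of 1.45 in the other cells. The last cell inside scored 3.432 and the first cell outside 3.430, so the limit cuts through a continuous range. All cells came from nodose ganglia of wild type C57BL/6 mice, dissociated with enzymes. The picked cells were from mice aged 8 to 12 weeks and were each made into their own Smart-seq2 library, and 1 droplet library of whole ganglia from mice aged 6 weeks was made with 10x Genomics reagents. The read table gives each picked cell a mouse and a target code, GastG, GastP, IntP, IntM, IntD, IntL, Port or na. The sources used here do not expand the codes or say how the cells were labelled or picked, and Int and Gast below stand for all codes that begin so.

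The nodose ganglion holds the cell bodies of vagal sensory neurons, whose peripheral endings lie in the gut, heart, airways and other viscera and whose central endings reach the brainstem. These neurons release glutamate and differ from each other in the receptors, ion channels and peptides they make. Dbh encodes dopamine beta-hydroxylase, which turns dopamine into noradrenaline, and a cell needs tyrosine hydroxylase (Th) and the decarboxylase encoded by Ddc to supply that dopamine. Ntsr1 encodes a receptor for the peptide neurotensin, Areg the EGF receptor ligand amphiregulin, Mfap5 a glycoprotein of extracellular microfibrils, and Lockd a long non-coding RNA transcribed next to Cdkn1b.

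In GENCODE M21 (GRCm38, the mm10 build named by the submitters) Dbh lies at chr2:27165233-27183200, Ntsr1 at chr2:180499976-180544980, Areg at chr5:91139599-91148432 and Mfap5 at chr6:122505845-122529290. All of these are protein-coding genes on the plus strand. Lockd, annotated as a lincRNA, lies at chr6:134929092-134956798. It is listed in the read table under a synonym in RefSeq and had 0 reads in every picked cell, so it added 0 to every score and the ranking rests on 4 genes.

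Not every member was marked by both Dbh and Mfap5, as 32 of 65 reached 10 reads of both genes. Among all picked cells 47 reached it for both, against 32.8 expected if the genes were independent. The other Mfap5 pairs lay near their expected numbers. Mfap5 and Areg both reached 10 reads in 33 picked cells, against 34.48 expected. Mfap5 and Ntsr1 both did in 48, against 45.97 expected. The expected numbers pool cells over mice and targets. A cell without Mfap5 needed high levels of the other score genes to enter, so the members cannot show whether they are a single type. Dbh reached 10 reads in 64 of 65 members (98.5%), against 27.9% of other cells, and Ntsr1 reached it in 63 members (96.9%), against 46.1% of other cells. Areg did so in 44 members (67.7%), against 35.4% of other cells. Mfap5 did so in 33 members (50.8%), against 13.8% of other cells, and 31 members had no Mfap5 read at all. Of the 4 genes that could be read, 14 members had all 4 at 10 reads, 46 had 3 and 5 had 2. Among the other cells 0 had all 4, 11.7% had 3, 30.5% had 2, 27.1% had 1 and 30.7% had none. These genes chose the members, so the counts are a description. The cells are called members below, and they are described first together and then split by Mfap5.

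The median member had 1556960 reads and 11459 genes, against 1626650 reads and 11381 genes in the median other cell. Members came from 25 of 34 mice. Slc17a6, the vesicular glutamate transporter, reached 10 reads in all 65 members, against 99.7% of other cells. Of the sympathetic neuron markers, Hand2 and Gata3 had no read in any member and neither Slc6a2, the noradrenaline transporter, nor Npy reached 10 reads in any. The remaining markers of that list, Th and Slc18a2, did have reads in members, and their differences are given below. The 6 sympathetic markers summed to a median of 30.4 CPM (range 1.33 to 3577) in members, against 69.3 CPM (range 3.12 to 7356) in other cells. The 5 satellite glia markers summed to a median of 8.36 CPM (range 0 to 3379) in members, against 40.3 CPM (range 0 to 10998.5) in other cells. The median sum of the 4 Schwann cell markers was 3.38 CPM in members, against 16.1 CPM in other cells. The 4 fibroblast markers had a median sum of 4.76 CPM in members, against 0.449 CPM in other cells. Glial markers were thus lower in members, with 3 of the 5 satellite glia markers over 1 lower in the comparison below, and their part in the differences was not tested.

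**Figure D1:**
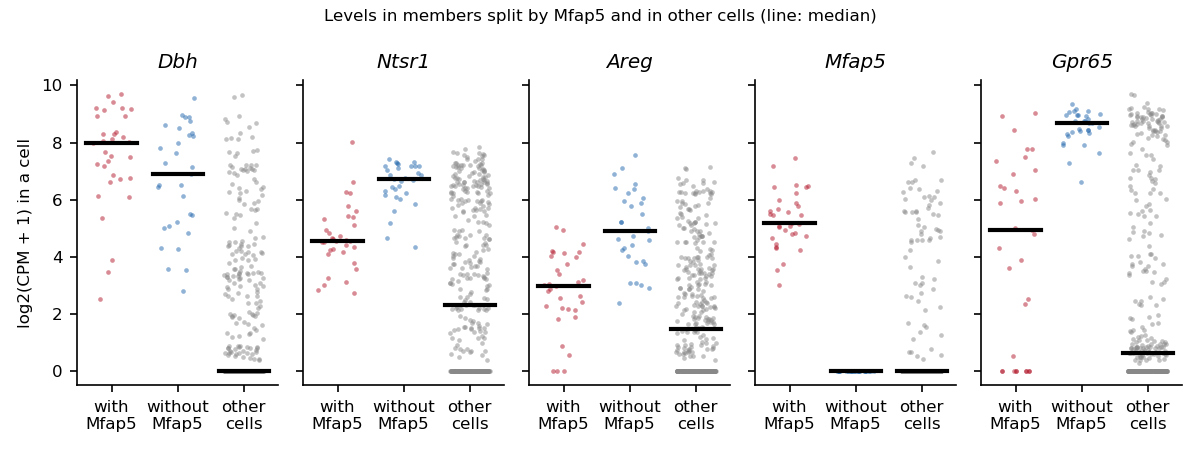
Levels of 5 genes in single picked cells, as log2(CPM + 1), for 33 members with at least 10 Mfap5 reads, 31 members with 0 Mfap5 reads and the other cells. Each point is a cell and each line a median. Dbh is high in both sets of members, Ntsr1, Areg and Gpr65 are higher in members without Mfap5, and many other cells have high Gpr65.

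Members were next set against other cells of the same mouse, in the 7 mice that held at least 3 of each. These were mice 11 and 12 (IntP), 20 and 26 (IntM), 47 and 51 (Port) and 31 (na). Mouse 11 held 9 members and each of the rest 3 or 4. No mouse coded GastG, IntD or IntL entered this comparison. The values are differences in mean log2(CPM + 1), averaged over mice with the SD over mice, and they are a description because the same cells and reads chose the members. Of the 12702 genes that reached 10 reads in 5% or more of cells, 1.72% were over 1 higher in members and 2.11% over 1 lower. Members were higher in every mouse for 5.31% of the genes and lower in every mouse for 3.47%.

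Among the genes of the score, Dbh in the 7 mice had a mean level of 4.91 to 8.19 in members (median 7.47), against 0.130 to 5.67 (median 2.25) in other cells, a difference of 4.58 ± 1.31. Ntsr1 had 4.42 to 7.10 in members (median 5.64), against 1.19 to 4.07 (median 2.42) in other cells, a difference of 2.95 ± 1.40. The mouse means of Ntsr1 in members and in other cells did not overlap, whereas those of Dbh did. Mfap5 differed by 2.05 ± 1.41 and was lower in members in 1 of 7 mice, and Areg differed by 1.93 ± 1.17.

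The largest difference outside the score was that of Chrnb3. This gene, which encodes the beta3 subunit of nicotinic receptors, had mouse means of 6.52 to 8.38 in members (median 7.75), against 0.772 to 5.97 (median 3.50) in other cells. The difference was 4.34 ± 2.00 and the mouse means did not overlap. Chrna6, its neighbour in the genome and a partner subunit in receptors of dopamine neurons, differed by 2.85 ± 1.11. Of the 10 opioid and nicotinic receptor genes of 13 that passed the filter, these 2 were over 1 higher and Oprm1, the mu opioid receptor, was over 1 lower (-1.19 ± 1.38). Chrna3 and Chrnb4, subunits of the ganglionic nicotinic receptor, differed by -0.11 ± 1.20 and 0.04 ± 1.39.

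Gpr65, a receptor activated by protons, had mouse means of 4.89 to 8.93 in members (median 6.76), against 0.896 to 5.07 (median 2.13) in other cells, a difference of 3.92 ± 2.13. It was higher in members in 6 of 7 mice, the exception being mouse 12 at -0.18. Slc10a4, a protein of synaptic vesicles in monoaminergic and cholinergic neurons, had 5.89 to 7.92 in members (median 7.19), against 2.14 to 5.40 (median 4.09) in other cells, a difference of 3.25 ± 1.23 without overlap. Synpr, another synaptic vesicle protein, differed by 3.20 ± 1.24. Both vesicle genes were higher in members in each of the 7 mice.

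The remaining genes of the 15 largest differences were all higher in members in 7 of 7 mice. They were Dcdc2a (2.98 ± 1.59), Olfm3 (2.85 ± 1.42), Aldh1l1 (2.69 ± 1.16), Avil (2.45 ± 1.23), Cysltr2 (2.33 ± 0.91), Kcnh8 (2.31 ± 1.39), Mgll (2.17 ± 1.21) and Sphk1 (2.11 ± 0.78), with Kcnk18 and Piezo1, given below. Avil encodes the actin-binding protein advillin of sensory neurons, and Aldh1l1 a folate enzyme better known from astrocytes. Cysltr2 is a receptor for cysteinyl leukotrienes, Mgll the lipase that breaks down the endocannabinoid 2-arachidonoylglycerol, and Sphk1 the kinase that makes sphingosine 1-phosphate.

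**Figure D2:**
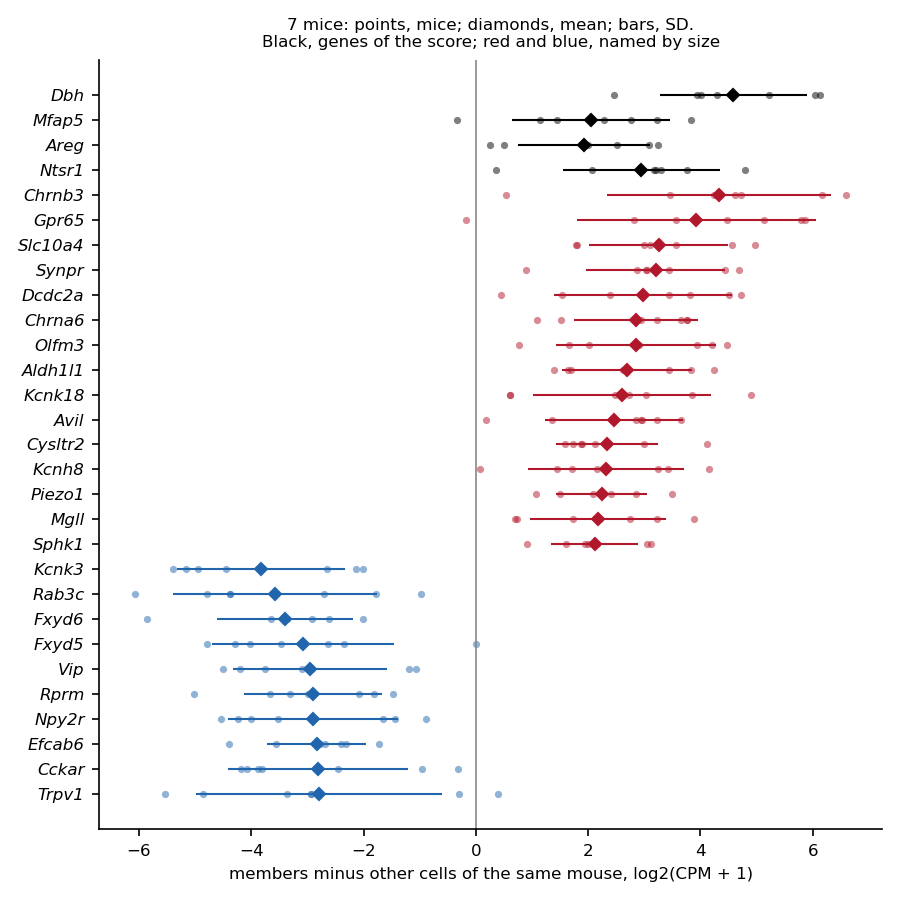
Difference between members and other cells of the same mouse in mean log2(CPM + 1), for the 4 readable genes of the score (black), the 15 highest genes outside it (red) and the 10 lowest (blue). Points are the 7 mice, diamonds their mean and bars the SD. Most red points lie above 0 and most blue points below it, with Gpr65 in 1 mouse and Fxyd5 and Trpv1 in 1 mouse each on the other side.

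The genes with the lowest differences included receptors for gut peptides and ion channels. Npy2r, the receptor for peptide YY, had mouse means of 0 to 2.50 in members (median 0.198), against 1.08 to 4.53 (median 3.94) in other cells, a difference of -2.90 ± 1.52. Cckar, the cholecystokinin receptor of vagal afferents, had 0.178 to 3.78 in members (median 0.818), against 0.493 to 6.23 (median 4.86) in other cells, a difference of -2.81 ± 1.60. Both were lower in members in 7 of 7 mice, although the ranges of the mouse means overlapped. Of the 15 gut hormone and metabolite receptors of 26 that passed the filter, Gpr65 alone was over 1 higher. The other receptors over 1 apart were 6 lower ones, Cckar, Npy2r, Cckbr (-1.40 ± 1.20), Glp1r (-1.21 ± 0.98), Ramp1 (-1.10 ± 0.87) and Oxtr (-1.06 ± 0.91).

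The potassium leak channel Kcnk3 had the lowest difference, -3.82 ± 1.5, with mouse means of 0 to 3.68 in members (median 0.564), against 2.14 to 6.52 (median 5.35) in other cells. Vip, which encodes vasoactive intestinal peptide, differed by -2.96 ± 1.37. Efcab6 differed by -2.83 ± 0.88 and Rprm by -2.90 ± 1.23, and their mouse means in members and other cells did not overlap. The rest of the 10 lowest were Rab3c (-3.58 ± 1.81), a vesicle GTPase, the sodium pump regulators Fxyd6 (-3.40 ± 1.22) and Fxyd5 (-3.08 ± 1.61), and Trpv1 (-2.79 ± 2.18), the capsaicin receptor. Trpv1 was higher in members in 1 of the 7 mice.

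The enzymes that precede dopamine beta-hydroxylase were on average lower, not higher, in members. Neither Th nor Ddc was lower in every mouse, and the ranges of their mouse means in members and other cells overlapped. Th had mouse means of 0 to 4.68 in members (median 1.93), against 1.60 to 6.01 (median 4.56) in other cells, a difference of -1.97 ± 1.55. Ddc had 0 to 2.75 in members (median 0.174), against 0.408 to 4.28 (median 2.38) in other cells, a difference of -1.39 ± 1.63, and reached 10 reads in 3 of 65 members (4.62%), against 19% of other cells. In the list of catecholamine synthesis and transport, 12 of 15 genes passed the filter. Of these, 2 were over 1 higher, Dbh and Gch1 (1.40 ± 0.98), which makes the cofactor of tyrosine hydroxylase. Another 3 were over 1 lower, Th, Ddc and the vesicular transporter Slc18a1 (-1.27 ± 1.24). Slc18a2, the vesicular monoamine transporter of neurons, differed by -0.05 ± 0.92, and Pnmt, which turns noradrenaline into adrenaline, reached 10 reads in no cell of either set.

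Few relatives of the other score genes were over 1 apart. Of the 11 EGF family ligands and receptors of 15 that passed, Areg alone was over 1 higher and none was over 1 lower. The ligand genes Hbegf and Btc differed by -0.09 ± 0.98 and 0.04 ± 0.80, and Egfr, the receptor of amphiregulin, had 0 reads in all 65 members. Of the 4 neurotensin genes, Ntsr1 alone was over 1 apart, Sort1 differed by 0.49 ± 0.73 and the peptide gene Nts by -0.10 ± 0.13. Of the 13 elastic fibre genes of 17 that passed, Mfap5 was over 1 higher and Fbln5 (-1.46 ± 1.52) and Fbln2 (-1.08 ± 1.67) over 1 lower. The microfibril scaffold gene Fbn1 differed by 0.07 ± 1.05. Cdkn1b, the cell cycle inhibitor gene beside Lockd, differed by 0.00 ± 0.34.

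Channels and receptors of other families were described from lists, each read against the 1.72% and 2.11% of all genes. Of 22 potassium channel genes of 28 that passed, 5 were over 1 higher, among them Kcnk18 (2.60 ± 1.58), Kcnt1 (1.34 ± 0.64), Kcnd1 (1.15 ± 0.56) and the channel partner Kcnip4 (1.12 ± 0.62), and 2 were over 1 lower, Kcns3 (-1.65 ± 1.44) and Kcnc1 (-1.63 ± 1.23). Of 15 mechanosensation genes of 18 that passed, Piezo1 (2.24 ± 0.81) and Tmem63a (1.29 ± 0.70) were over 1 higher. Kcnk2 (-1.33 ± 2.21) and Asic1 (-1.45 ± 1.30) were over 1 lower, and Piezo2, the mechanosensor of touch, differed by -0.45 ± 0.46 from a low level. Of 12 TRP channel genes of 15, none was over 1 higher and Trpv1, Trpa1 (-2.44 ± 1.42) and Trpc6 (-1.49 ± 1.00) were over 1 lower. Of 13 sodium channel genes of 13, 1 was over 1 higher, Scn10a, the channel of slow sensory neurons (1.43 ± 0.91), and 1 was over 1 lower.

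Among ligand-gated channels, Htr3a (1.76 ± 1.97) and Htr3b (1.74 ± 1.63), which together form the ion channel opened by serotonin, were over 1 higher, out of 7 serotonin receptor genes of 13 that passed. Gabrg1 was 2.09 ± 1.19 higher and Gabra3 1.15 ± 0.77 lower among 12 GABA and glycine receptor genes of 17. The glutamate receptor genes Gria2 (1.18 ± 1.08) and Grik4 (1.20 ± 1.05) were over 1 higher among 13 of 18. The calcium channel genes Cacna2d3 (1.81 ± 1.07) and Cacna1e (1.11 ± 0.68) were over 1 higher among 12 of 15. Of 12 purinergic receptor genes of 16, P2ry1 alone was over 1 apart (1.37 ± 1.45).

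Among 21 transcription factor genes of 33 that passed, Casz1 (1.98 ± 1.03), Pou4f1 (1.58 ± 1.16) and Ebf3 (1.45 ± 0.53) were over 1 higher and Prrxl1 (-1.11 ± 0.69), a factor of somatosensory neurons, over 1 lower. Of 18 growth factor and cytokine receptor genes of 20, 3 were over 1 higher, among them Gfra2 (1.34 ± 1.32) and Ret (1.06 ± 0.80), and 1 was over 1 lower, Osmr (-1.11 ± 0.79). Ret is the signalling receptor of the GDNF family and Gfra2 the co-receptor for neurturin. None of 18 neuropeptide genes of 22 was over 1 higher, and Vip, Gal (-1.87 ± 1.48) and Uts2b (-1.71 ± 1.63) were over 1 lower. None of 14 immediate early genes of 15 was over 1 apart. Of 12 nerve injury genes of 14, Gal alone was over 1 apart, and Atf3 differed by -0.85 ± 1.99.

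The members were then split by Mfap5, into 33 with at least 10 reads and 31 with none; the 1 member with 1 to 9 reads was left out. This split was made after the values had been seen, so it is a description without a test. The members with Mfap5 came from 17 mice and had a median of 1485090 reads and 11472 genes, and those without came from 17 mice and had 1595770 reads and 11444 genes. Of 10137 genes compared, 1.65% were over 1 higher with Mfap5 and 1.21% over 1 lower. The means below are over cells, in log2(CPM + 1) with the SD over cells, and the kinds were not spread evenly over mice and targets. Only 9 mice held both kinds. The mean difference within these mice was smaller for the score genes and the genes named by size, except Ntsr1, Kcns3, C1ql3 and Cav2. It was 2.01 for Gfra1 (3.66 over cells), -2.75 for Tmem255a (-4.08 over cells) and -1.24 for Areg (-2.15 over cells). For Kcns3 it was 3.21 (2.92 over cells).

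Gpr65 had the largest difference among the genes lower with Mfap5. It was present at 10 reads in 21 of 33 members with Mfap5, with a mean level of 4.24 ± 3.21, against 31 of 31 members without Mfap5, with 8.52 ± 0.59. Other cells had a mean Gpr65 level of 2.60. Gpr65 was lower with Mfap5 in 9 of the 9 mice that held both kinds. Ntsr1 behaved the same way, at 4.67 ± 1.14 with Mfap5, against 6.54 ± 0.77 without it, and was lower with Mfap5 in 9 of 9 mice. Areg had 2.80 ± 1.38 with Mfap5, against 4.95 ± 1.36 without it, and was lower with Mfap5 in 8 of 9 mice. Dbh differed less, at 7.50 ± 1.74 with Mfap5, against 6.68 ± 1.89 without it. Ntsr1 and Areg belong to the score, and a cell without Mfap5 needed high levels of them to reach the limit. Genes that vary with these are not free of that choice either. The share of all genes lower or higher in 9 of 9 mice is not given. The counts of mice here and below are thus a description of genes named by the size of their difference.

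Other genes lower with Mfap5 were Tmem255a, Adcy8, Cntn1, Cav2, P2ry1, Ak5, Rasgrf2, Kcnt2 and Cfap52. Adcy8, a calcium-stimulated adenylyl cyclase, had 1.52 ± 1.66 with Mfap5, against 4.50 ± 1.15 without it. P2ry1, a receptor for ADP, had 3.13 ± 1.93 with Mfap5, against 5.65 ± 1.61 without it. Both were lower with Mfap5 in 9 of 9 mice. The differences of the other 7 genes lay between -4.08 for Tmem255a and -2.30 for Cfap52.

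The 12 genes named as higher with Mfap5 were Drd2, Hs6st2, Gfra1, Trpv1, Crhr2, Syt16, Cygb, Tmem158, Emp3, Kcns3, C1ql3 and Unc13c. Higher here means against members without Mfap5, not against other cells. With Mfap5, C1ql3 had 3.15, against 3.30 in other cells, and Syt16 4.12, against 3.96. Drd2 and Crhr2 were further above other cells, which had 2.66 and 4.27. Drd2, an inhibitory dopamine receptor, had 4.88 ± 2.29 with Mfap5, against 0.81 ± 1.46 without it, and reached 10 reads in 25 of 33, against 5 of 31. Crhr2, a receptor for urocortins, had 7.35 ± 2.40 with Mfap5, against 4.02 ± 2.91 without it. Both were higher with Mfap5 in 9 of 9 mice. Gfra1, the co-receptor for GDNF, had 5.61 ± 2.07 with Mfap5, against 1.95 ± 1.86 without it, and was higher in 8 of 9 mice. Trpv1, low in members as a whole, had 4.69 ± 2.54 with Mfap5, against 1.33 ± 1.36 without it, while other cells had a mean of 5.67. Of the other genes named for members as a whole, Chrnb3 differed by -0.19 between the kinds, Chrna6 by 0.21, Kcnk18 by 0.19 and Piezo1 by 0.29, 4 genes chosen after their values were seen.

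**Figure D3:**
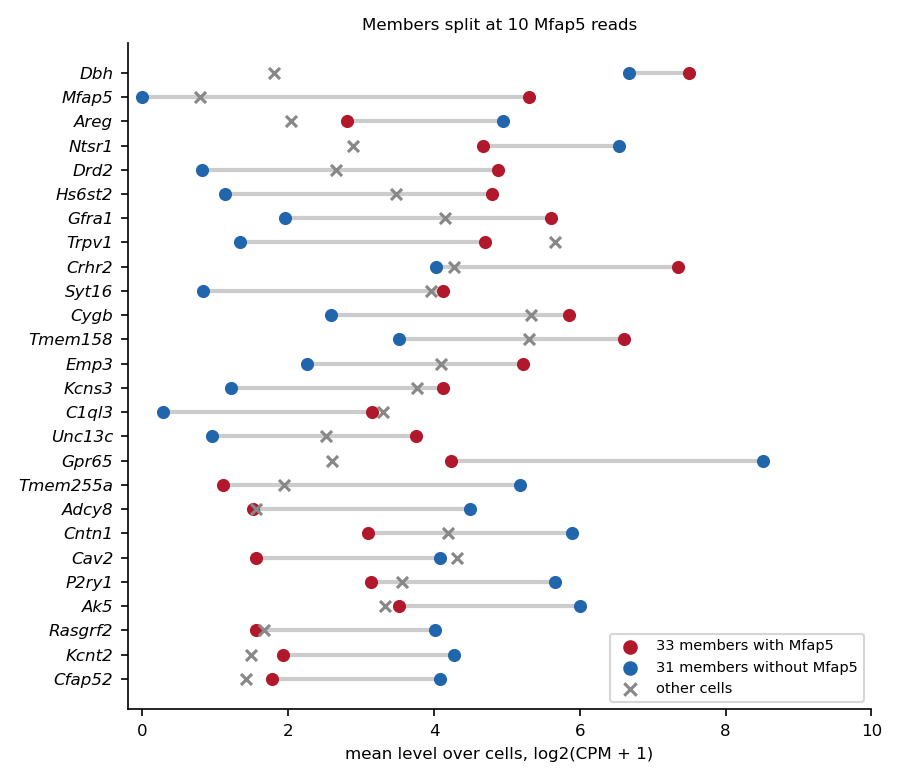
Mean level over cells, in log2(CPM + 1), of the 4 readable score genes and of 22 genes named by the size of their difference, in 33 members with Mfap5 (red), 31 members without it (blue) and other cells (grey crosses). For Drd2, Gfra1 and Crhr2 the members with Mfap5 lie highest, and for Gpr65, Adcy8 and Tmem255a those without it do.

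The 250 bases before the starts of Areg, Ntsr1 and Gpr65 in RefSeq (GRCm38.p6, plus strand) are shown, with matches to TGACG, the core of the cAMP response element, on either strand in capitals. These genes were higher in members without Mfap5, but Areg and Ntsr1 belong to the score, so this is no shared pattern free of the rule. Areg is given at chr5:91139349-91139598, Ntsr1 at chr2:180499726-180499975 and Gpr65 at chr12:98268385-98268634.
Areg: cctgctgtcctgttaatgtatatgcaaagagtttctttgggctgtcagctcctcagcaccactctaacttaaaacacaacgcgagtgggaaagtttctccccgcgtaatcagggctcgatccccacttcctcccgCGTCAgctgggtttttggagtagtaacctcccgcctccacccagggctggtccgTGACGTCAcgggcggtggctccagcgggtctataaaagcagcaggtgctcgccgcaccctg
Ntsr1: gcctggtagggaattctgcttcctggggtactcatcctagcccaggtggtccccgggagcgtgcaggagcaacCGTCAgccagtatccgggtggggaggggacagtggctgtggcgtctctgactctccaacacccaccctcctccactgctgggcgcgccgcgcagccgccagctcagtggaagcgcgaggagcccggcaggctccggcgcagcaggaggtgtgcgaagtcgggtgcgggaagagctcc
Gpr65: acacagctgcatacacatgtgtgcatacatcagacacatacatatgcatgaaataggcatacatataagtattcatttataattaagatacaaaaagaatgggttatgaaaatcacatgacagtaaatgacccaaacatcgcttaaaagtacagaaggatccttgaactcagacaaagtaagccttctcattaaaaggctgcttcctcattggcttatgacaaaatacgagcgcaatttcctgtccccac
Areg had 3 matches, 2 of which overlap in the palindrome TGACGTCA, Ntsr1 had 1 and Gpr65 had 0. Dbh, which was not higher without Mfap5, had 1 match in its own 250 bases, not shown. Of all 32851 RefSeq promoters of this length, 17.8% hold at least 1 match, and a match is only a run of letters.

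The targets differed in how many members their mice held. The share of members among the cells of a mouse was taken over mice with at least 4 cells. In the 4 IntP mice it was 26.7%, 52.9%, 71.4% and 83.3%. In IntM mice it was 13.3%, 23.5% and 30.8%, in IntD mice 7.14%, 11.8% and 50%, and in IntL mice 0%, 6.25% and 6.25%. Only IntM mouse 20 and IntD mouse 19, which had 4 cells, reached above the lowest IntP mouse. In GastG mice the share was 0% to 20% with a median of 12.5% (5 mice), in Port mice 0% to 20% with a median of 10.8% (8 mice), and in mice coded na 0% to 25% with a median of 13.3% (4 mice). None of 45 GastP cells from 3 mice was a member, which allows a share of up to 6.67% by counting error over cells alone, without the spread between mice.

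IntP mice had a mean member share of 58.6% ± 24.7 (SD, n = 4), against 16.6% ± 15.7 in the other Int mice (SD, n = 9), a difference of 42 points. The exact two-sided permutation test over mice gave p = 0.00559, adjusted over 3 comparisons to 0.0168, with 4 of 4 IntP mice above the median of the others. This difference rests on Dbh: with members chosen by a score without Dbh it was 0.280 points (exact permutation test, adjusted p = 0.979), and 30 of the 65 cells were then the same. Without IntP mouse 16 it was 37.8 points and without IntP mouse 17 it was 33.8 points, each with an adjusted p of 0.0545 in the same exact test, and with at least 8 cells per mouse, which leaves 2 IntP mice, it was 27.4 points (adjusted p = 0.0797). Earlier results on these data had already shown many cells of this kind in IntP mice, so the test is not independent support.

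Int mice as a whole had a mean member share of 29.5% ± 26.9 (n = 13), against 7.01% ± 7.95 in Gast mice (n = 8), a difference of 22.5 points (exact two-sided permutation test, p = 0.0295, adjusted p = 0.0443). The share was above the Gast median in 12 of 13 Int mice. The adjusted p rose above 0.05 when any of 14 of the 21 mice was left out, namely mice 8, 9, 10, 11, 12, 16, 17, 19, 20, 26, 41, 42, 43 and 44, with an adjusted p of at most 0.0726 in that exact test. Port mice had a share of 10.2% ± 7.56 (n = 8), against 29.5% ± 26.9 in Int mice, a difference of -19.3 points that missed the threshold (exact permutation test, adjusted p = 0.0620). It passed without mouse 18, 33, 34 or 39, at an adjusted p of 0.0335 to 0.0443 in the same exact test.

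**Figure D4:**
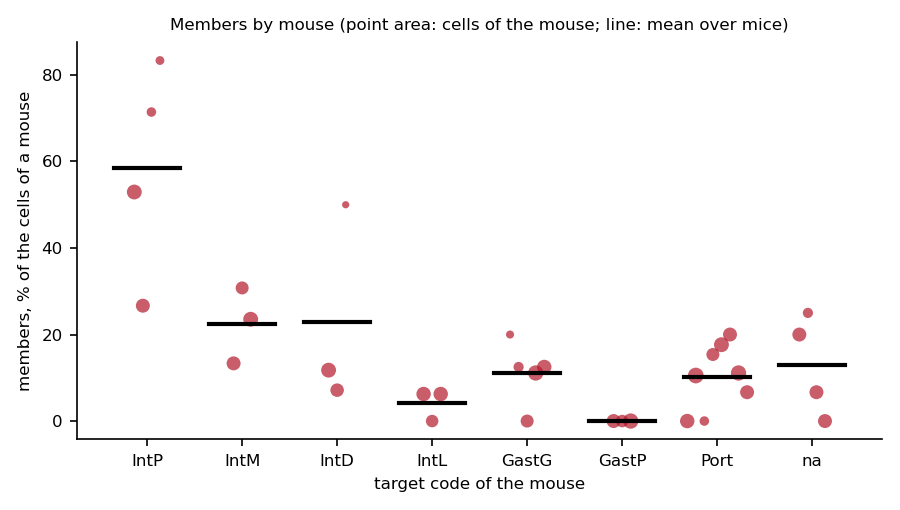
Share of a mouse's picked cells that were members, in percent, by target code, for mice with at least 4 cells. Each point is a mouse, its area grows with the number of cells, and lines are means over mice. IntP mice lie between 26.7% and 83.3%, all GastP mice lie at 0%, and the highest IntD point is a mouse with 4 cells.

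The targets also differed in which kind of member they held. IntP cells held 15 members with Mfap5 and 7 without it, IntM cells 2 with and 8 without, IntD cells 1 with and 4 without, and IntL cells 0 with and 2 without. GastG cells held 6 with and 0 without, Port cells 5 with and 8 without, and cells coded na 4 with and 2 without. These counts are not independent between cells of a mouse: 5 of the 15 IntP members with Mfap5 came from mouse 17.

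Genes within member cells were compared between targets over mice with at least 2 members, using the mean of log2(CPM + 1) over the members of each mouse and limma across 11255 genes. For IntP (4 mice) against other Int mice (5 mice, 3 coded IntM and 2 coded IntD, none coded IntL), 87 genes were higher (0.773%) and 82 lower (0.729%) at a Benjamini-Hochberg adjusted p under 0.05. These counts include 3 genes of the score, Dbh, Mfap5 and Ntsr1, which chose the cells and for which the call is no test. In the 4 IntP mice 44.4%, 60%, 75% and 100% of members had Mfap5, against 0% in 4 of the other Int mice and 50% in IntM mouse 26. With that share as a covariate, an alternative chosen after the data were seen, limma called 0 genes, with 836 at an unadjusted p under 0.05. The differences between targets and the share of members with Mfap5 therefore cannot be told apart in these mice. Leaving out any 1 of the 9 mice moved the count by more than 1.5 times. It was 4 genes without mouse 17, 14 without mouse 19, 16 without mouse 11, 27 without mouse 20, 28 without mouse 15, 45 without mouse 14, 52 without mouse 16 and 485 without mouse 12, and 2.27% of the genes without mouse 26. On summed reads, edgeR called 40 genes (0.355%) and DESeq2 2.52% of the genes.

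The genes named by size as higher in IntP members included Tmem158, Gfra1, Cygb, Zdhhc22, Pde11a and Kcnf1. Pde11a, a phosphodiesterase of cyclic nucleotides, had mouse means of 4.54, 5.06, 5.48 and 5.74 in IntP members, against 1.49, 1.58, 1.85, 2.22 and 2.61 in other Int members. The groups did not overlap, and the fitted log2 difference was 3.24 ± 0.46 (SE; limma, adjusted p = 0.00819). Gfra1 had 3.78, 4.82, 5.86 and 7.07 in IntP members, against 0.351, 0.483, 0.565, 2.69 and 2.73 in other Int members, again without overlap (3.99 ± 0.74, SE; limma, adjusted p = 0.0179). Tmem158 had 5.68 to 7.27 in IntP members, against 0.440 to 5.64 in other Int members (4.22 ± 0.75, SE; limma, adjusted p = 0.0151), with mouse 26 the highest of the others. Kcnf1, a potassium channel subunit, Cygb, a globin, and Zdhhc22 had fitted differences between 3.21 and 3.89. With the Mfap5 share as a covariate the difference of Pde11a was 2.24 ± 0.62, that of Gfra1 2.54 ± 1.01 and that of Tmem158 1.80 ± 0.80, with limma adjusted p of 0.607, 0.634 and 0.649.

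Genes named as lower in IntP members were Slc12a7, Brinp1, LOC102634852, Gpc3, Pde9a, Ak5, Nrp1 and Nyap2. Slc12a7, a potassium chloride cotransporter, had 0, 0, 0.386 and 1.79 in IntP members, against 2.72, 4.45, 5.02, 5.26 and 5.32 in other Int members (-4.04 ± 0.63, SE; limma, adjusted p = 0.00946). Ak5, an adenylate kinase, had 3.45 to 3.95 in IntP members, against 5.09 to 7.77 in other Int members (-3.02 ± 0.60, SE; limma, adjusted p = 0.0244). Neither gene overlapped between the groups. In all members, Ak5 had 3.53 with Mfap5, against 6.00 without it, and Slc12a7 had 1.18 with Mfap5, against 3.41 without it. Nrp1, a semaphorin receptor, and Gpc3, a glypican, had fitted differences of -3.00 ± 0.62 and -3.09 ± 0.75. Under the covariate all 8 kept their sign and none passed the threshold.

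Of the list genes outside the score that were tested, 9 were higher in IntP members (4.35%) and 3 lower (1.45%), against 0.773% and 0.729% of all genes. Those higher included Gfra1, Gfra2, Ebf3, Klf5, Kcnc1, Piezo1, Scn2b and Scn9a, and those lower were Cdkn1a, Htr1f and Prph. The lists were chosen with earlier results of these data known, so these percentages are a description and no test of the lists. Gfra2 had a mean of 6.53 ± 0.41 in IntP members, against 4.01 ± 1.53 in other Int members (limma, adjusted p = 0.0421). Piezo1 had 5.35 ± 0.52 in IntP members, against 3.32 ± 0.55 in other Int members (limma, adjusted p = 0.0338). With the Mfap5 share as a covariate limma called none of the list genes, so their differences cannot be told apart from that share. Of the score genes, Dbh averaged 8.33 ± 0.26 over IntP mice, against 5.56 ± 1.30 over other Int mice, and Ntsr1 averaged 4.71 ± 0.67, against 6.67 ± 0.67, given as a description because these genes chose the cells.

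**Figure D5:**
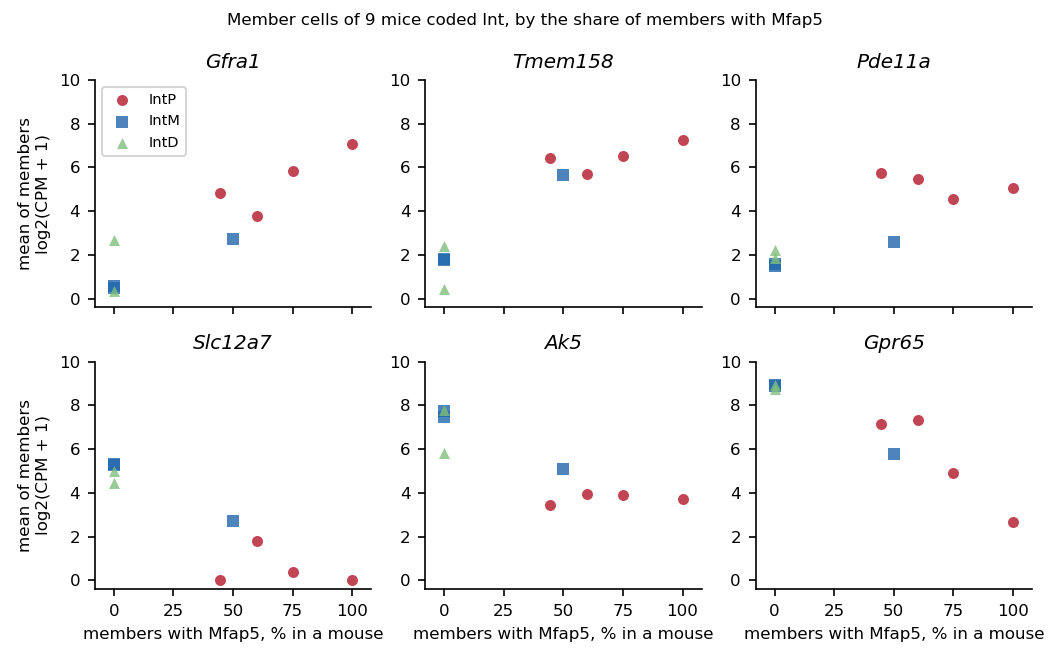
Mean level of 6 genes over the members of a mouse, in log2(CPM + 1), plotted against the share of that mouse's members with Mfap5 in percent, for 4 IntP mice and 5 other Int mice (IntM and IntD). Each point is a mouse. The share is 0% in 4 of the other Int mice and 44.4% or more in IntP mice, and IntM mouse 26, at 50%, is the point where both overlap.

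For Port (5 mice) against Int (9 mice), limma called 1 gene higher (0.00888%) and 2 lower (0.0178%) in members. Cacnb3, a calcium channel beta subunit, had mouse means of 7.02 to 7.62 in Port members with a median of 7.48, against 6.28 to 6.93 in Int members with a median of 6.53, and the groups did not overlap (0.85 ± 0.12, SE; limma, adjusted p = 0.00975). Clvs1 differed by -2.27 ± 0.37 and Cacna1b, the N-type calcium channel, by -0.75 ± 0.12 (SE; limma, adjusted p = 0.0379 for both), and both overlapped. Without mouse 14, 22 or 47 limma called 0 genes, with 1257, 1386 and 1512 at an unadjusted p under 0.05. The count was 1 without mouse 11, 17, 20 or 46, 6 without mouse 26, 7 without mouse 12 and 63 without mouse 51. DESeq2 on summed reads called 97 genes and edgeR 1.

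The droplet library, which the rule did not use, was set beside these results by taking the 3% of its 1108 barcodes with the highest score over the same 5 genes, 33 cells against 1075 others. With 1 library there is no test between samples, and the ratios of summed CPM carry 95% Poisson intervals that cover counting error only. The 33 cells had a median of 111272 UMIs (unique molecular identifiers), against 54602 in the others, and 330 of the others held more UMIs of satellite glia markers than of nodose markers. No doublet caller was run, and the part of depth and glia in the ratios was not tested. Of 11217 genes with at least 200 UMIs, 1.26% had a ratio over 2 and 12.8% a ratio under 0.5. In this library Lockd was measured, at 37.8 CPM in the 33 cells, against 4.13 CPM in the others.

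Of the 15 genes highest in picked members, 12 had a droplet ratio over 2, against 1.26% of genes with at least 200 UMIs. A ratio over 1 was found for 14 of them, and the share of all genes over 1 is not given. The same score chose both sets of cells, so this is a description. Gpr65 was at 325.8 CPM in the 33 cells, against 38.2 CPM in the others, a ratio of 8.53 (7.94 to 9.16). Slc10a4 had a ratio of 4.31 (3.73 to 4.96), Kcnk18 4.31 (3.63 to 5.11), Dcdc2a 3.77 (3.63 to 3.92) and Chrnb3 3.35 (2.96 to 3.79). The exception was Synpr, at 131.1 CPM in the 33 cells, against 134.7 CPM in the others (0.973, 0.883 to 1.07). The 10 genes lowest in picked members all had ratios under 0.5, an outcome seen for 12.8% of genes with at least 200 UMIs. Among them were Kcnk3 at 0.0363 (0.0241 to 0.0524), Vip at 0.0402 (0.0245 to 0.0621) and Cckar at 0.0486 (0.0363 to 0.0638). Th was also lower, at 13 CPM in the 33 cells, against 66.6 CPM in the others, and Ddc was at 1.18 CPM, against 37.9 CPM.

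Some genes differed between the droplet library and the picked cells. The 2 comparisons also differ in the age of the mice, in the measure and in the other cells, as 330 of the 1075 droplet others were rich in glial markers. Which of these matters was not tested. Slc18a2 had a droplet ratio of 2.27 (1.44 to 3.45), against a picked difference of -0.05 ± 0.92 on the log2 scale. Edn3, which encodes endothelin 3, had a droplet ratio of 5.97 (4.97 to 7.14), against a picked difference of -0.37 ± 1.27. Sst, which encodes somatostatin, had a droplet ratio of 9.94 (8.92 to 11.1) but reached 10 reads in 7 of 65 picked members (10.8%), against 12.8% of other picked cells. The 515 Sst UMIs were concentrated: 14 of the 33 droplet cells had any, 3 had 10 or more and 1 cell held 61.9% of them.

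Mfap5 had a UMI in 18 of the 33 droplet cells and none in 15, with median depths of 121770 and 102327 UMIs. It also had a UMI in 19 of the 330 barcodes rich in glial markers, with a median of 48476 UMIs, and where those UMIs came from was not tested. Of 9097 genes with at least 20 UMIs, 2.59% had a ratio over 2 with Mfap5 and 3.83% a ratio under 0.5. All 8 of the 12 genes named as higher with Mfap5 in picked members that could be read here had ratios over 1, 5 of them over 2, and all 10 genes named as lower had ratios under 1, 7 of them under 0.5. Gfra1 was at 48.6 CPM in cells with Mfap5, against 1.72 CPM (2 UMIs) in cells without it, a ratio of 28.3 (7.65 to 236.9). Crhr2 was at 64.4 CPM in cells with Mfap5, against 12.0 CPM without it (5.36, 3.09 to 10.0), and Unc13c had a ratio of 6.43 (3.14 to 15.3). Gpr65 was at 235.5 CPM in cells with Mfap5, against 497.9 CPM without it (0.473, 0.419 to 0.533). Areg was at 53.6 CPM with Mfap5, against 143.4 CPM without it, Ntsr1 at 49.1 CPM, against 122.8 CPM, and P2ry1 at 20.7 CPM, against 133.1 CPM. The droplet cells were chosen by the same score and split by the same gene, so the levels of the score genes are no finding here. Genes that vary with the score genes are not free of that choice either. The share of all genes with a ratio over or under 1 is not given, so the counts over and under 1 are a description.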

How the data were processed

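The deposited read table holds log2 values of reads per gene and cell for 36920 genes, with a floor of -5.64, the log2 of 0.02, read here as 0 reads; 94.1% of the values above it were whole reads within 1 part in 1000. Its header lines, written by the authors, give mouse and target code. Of its columns 452 match a sample by title and 1 does not and was not used. The deposited droplet matrix holds counts of UMIs for 28001 genes and 1108 barcodes, made with Cell Ranger 2.0.1 on mm10, per the submitters' processing notes; for picked cells no aligner is named in those notes. The deposited gene and barcode files hold names only.

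Of these, 449 cells passed, 65 of them members and 384 others. A gene counted as detected at 10 reads. The mouse is the replicate. Member shares were tested by exact permutation of mice, two-sided (scipy 1.17.1), adjusted by Benjamini-Hochberg over 3 comparisons. Genes within members were fitted with limma 3.58.1 in R 4.3.3, with an intensity trend, on mouse means of log2(CPM + 1), keeping genes that reached 10 reads in 10% or more of members and mice with at least 2 members, those coded na left out; p-values were adjusted over all genes at 0.05. The fit was also run on simulated normal mouse values that meet its own assumptions. That run cannot speak to means over few members or to the Mfap5 share. EdgeR 4.0.16 and DESeq2 1.42.0 on summed reads were alternatives. Fold changes on log2(CPM + 1) understate the change of low genes.

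The members, the 34 gene lists (395 genes) and the tests were chosen with earlier results of these data known. Named genes were the score genes, the 15 highest and 10 lowest differences among genes at 10 reads in 25% of members (highest) or of other cells (lowest), list genes over 1 apart or tied to a score gene, and the 8 highest and 8 lowest genes of a fit, without gene models, mitochondrial and ribosomal protein genes. Genes of the split by Mfap5 were the 12 highest and 10 lowest with detection in 50% of either kind. Xist and Malat1 were not used. The labels do not say whether the cells of a mouse were taken on 1 day. Droplet cells passed at 1000 UMIs and 500 genes, and a ratio needed 20 UMIs. A few genes that the rules would name are not reported here.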

Additional observations from a re-analysis of the deposited data

Results flagged for a closer look

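Of 33 sets of 4 to 10 mice tested for a mouse that stands apart, 1 had one, and chance alone flags about 1 in 20. The difference of Fxyd6 between members and other cells was -5.86 in mouse 26 (IntM), against -3.66 to -2.01 in the other 6 mice.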

How the results depend on the processing

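Leaving out 1 mouse at a time gave a difference in member share of 33.8 to 52.7 points for IntP against other Int, 18 to 24.9 for Int against Gast and -21.8 to -14.8 for Port against Int. As percent of genes tested, it gave 1.49% to 2.28% over 1 higher and 1.95% to 2.57% over 1 lower in members, and 0.0355% to 4.31% called for IntP and 0% to 0.560% for Port within members. For Int against Gast the difference lost its call with 45 members (15.6), without Dbh (18.7), Areg (17.4) or Ntsr1 (10.8) in the score and with at least 8 cells per mouse (12.7). For IntP it lost its call without Dbh (0.280) and with at least 8 cells (27.4). Port against Int passed with 85 members (-21.1) and without Mfap5 in the score (-17.1).

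The genes over 1 higher in members were 0.394% at log2(CPM + 10) and 0.795% with 45 members; those over 1 lower were 0.386% at log2(CPM + 10), 3.37% with cells thinned to 100000 reads and 1.35% for members with Mfap5 only, the last chosen after seeing the data. Mfap5 itself was -0.58 for members without Mfap5 only, which that choice fixes. Within members, the genes called for IntP, 1.5% in the report, were 0.0964% with any read as filter, 0.0355% with at least 3 members per mouse, which leaves 2 other Int mice, 0.355% by edgeR, 2.52% by DESeq2 and 0% with the Mfap5 share as a covariate. Those called for Port, 0.0267% in the report, were 0% with at least 3 members per mouse (limma, 903 genes at an unadjusted p under 0.05), 0.00888% by edgeR, 0.862% by DESeq2 and 0.0622% with the covariate, also chosen after seeing the data. Droplet ratios under 0.5 were 13.2% of fewer genes tested in cells thinned to 10000 UMIs, which kept 11 of the 33 cells. The causes were not tested. Of named genes under these settings, 93.6% of the values for members against other cells moved by less than the spread between mice. Within members 41% kept their side of the threshold and 59% lost it. Of the droplet values of named genes, 58.7% counted as the same and 41.3% as moved.

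No paired analysis was possible because a mouse carries 1 target code, so targets cannot be compared within a mouse; members and other cells were compared within mice. Values near 0 reads limit low genes, and 7 mice limit the differences described for members.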
